A study of Rattus norvegicus with 16 samples.

Results

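A set of 7 genes of lipid metabolism was followed in denervated rat muscle: the stearoyl-CoA desaturases Scd and Scd2, the acyl-CoA ligases Acsl4 and Acsl5, the citrate-cleaving enzyme Acly, the phospholipid enzyme Pcyt2 and the sterol reductase Dhcr7. Each was represented by 1 probe, so the set comprised 7 of the 1176 probes tested, and 7 of the 1096 genes they name. The probes were found by gene symbol, with Scd also known by the older name Scd1. The genes were chosen with earlier results of the same comparison in view, so their differences between the groups are given as descriptions. Where a fit over all probes called a member, the call describes where it stood in that fit and is not evidence from an independent test.

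The samples were extensor digitorum longus (EDL) muscles, which lie in the lower leg and hold mostly fast-twitch fibres, from Brown-Norway rats 6 months old. The groups were 8 innervated control muscles and 8 muscles denervated for 2 months, each muscle on 1 nylon membrane array. Rat numbers run from 1 to 8 in each group, and no genetic change or drug is named in the labels. How the nerve supply was removed, whether control and denervated muscles of 1 number came from the same rat, and whether samples were pooled is not given in the sources used here. Nothing states that the samples of a group came from separate animals beyond their rat numbers, and the spread between arrays is therefore the only error available.

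The values are on a logarithmic scale of unknown base, so differences are given in log units, without folds. The lowest value on each array recurred on 22 to 206 probes and is termed the floor of that array. The true level behind a value at the floor may be lower. The floors lay between 3.27 and 6.69 on control arrays and between 2.51 and 5.93 on denervated arrays. Among the 7 probes, 17 of 56 control values and 4 of 56 denervated values were at the floor. The mean over all probes was 8.19 to 8.31 on 15 arrays and 6.63 on the array of control rat 6, and the median difference over all probes was 0.22. The highest share of identical values above the floor in any of 120 pairs of arrays was 0.110%. Ckm, the creatine kinase of muscle, lay far above the floor in both groups. Its means were 13.01 ± 1.88 in control and 13.72 ± 0.71 in denervated muscle (SD, n = 8 per group). Another muscle fibre marker, Tpm1, went the other way, with means of 5.88 ± 1.20 and 5.30 ± 1.03. For 5 control and 4 denervated rats its value was that of the array floor, so not every fibre marker was clearly detected.

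Fatty acids and sterols are built from acetyl-CoA, which Acly makes in the cytosol from citrate. Stearoyl-CoA desaturases place a double bond in saturated acyl-CoA and so supply the monounsaturated fatty acids of membranes and stored fat. Acyl-CoA ligases join free fatty acids to coenzyme A, the step that commits them to oxidation, storage or membrane lipid. Pcyt2 makes CDP-ethanolamine, the intermediate from which phosphatidylethanolamine is formed, and Dhcr7 catalyses the last step of one branch of cholesterol synthesis. Many genes of these pathways respond to the transcription factors of the SREBP family, which act on sterol regulatory elements together with the CCAAT-binding factor NF-Y.

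Promoter sequence was read for all 7 genes from a RefSeq promoter table of rat assembly GRCr8, in the 250 bases before each listed start. The printed sequences are those of Scd2, the desaturase with no value at the floor, and of Pcyt2, the member whose groups did not overlap, both on the strand of the gene and 5′ to 3′. The Scd2 sequence is chr1:253118127-253118376 on the + strand. The Pcyt2 sequence is chr10:106394501-106394718 on the - strand, the part that lies outside the annotated gene. It holds 218 of the 250 bases, and those nearest the listed start are not printed. Positions given below for Pcyt2 count from the listed start, not from the end of the printed sequence. Capitals mark the CCAAT box, written CCAAT or, when it lies on the opposite strand, ATTGG.
Scd2: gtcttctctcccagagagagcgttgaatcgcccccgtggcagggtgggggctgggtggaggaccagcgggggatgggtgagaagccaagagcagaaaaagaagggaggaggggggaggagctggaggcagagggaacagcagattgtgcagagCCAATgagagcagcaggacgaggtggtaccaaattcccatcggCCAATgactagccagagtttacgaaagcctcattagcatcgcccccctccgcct
Pcyt2: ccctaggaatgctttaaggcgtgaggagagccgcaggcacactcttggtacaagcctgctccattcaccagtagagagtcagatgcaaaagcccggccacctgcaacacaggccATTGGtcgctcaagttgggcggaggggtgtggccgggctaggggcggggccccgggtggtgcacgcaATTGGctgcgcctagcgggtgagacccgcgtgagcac
Each of these promoters held 2 CCAAT boxes, at 97 to 93 and 54 to 50 bases before the start in Scd2 and at 136 to 132 and 69 to 65 bases before it in Pcyt2. A CCAAT box on either strand was found in 3 of the 7 windows, the third being that of Acly, and in 34.2% of 27457 rat promoter windows of the same length. The sterol regulatory element in the form TCACNCCAC was found on neither strand in any of the 7, against 0.987% of all windows, and the E-box CACGTG in none, against 5.73%. Other forms of the sterol regulatory element or of the E-box were not searched, so their absence from these promoters is not shown. Since CCAAT was the only searched motif found, no motifs overlapped. For Scd and Acly the window lies inside the annotated gene, because the gene table places their outermost start further upstream. For Acsl4 only 95 of the 250 bases lie outside it. Motifs were counted over all 250 bases of each window, so the CCAAT box of Acly lies inside the annotated gene.

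Denervated muscle was set against control muscle to learn how the transcripts of these genes stood after 2 months of denervation. In a linear model over all 1176 probes (limma, Benjamini-Hochberg adjusted p under 0.05), 5 of the 7 probes were among those called higher in denervated muscle, Scd, Scd2, Acsl4, Pcyt2 and Dhcr7, and none was called lower. The same call was made for 6.29% of all probes, 5.44% in the higher direction and 0.85% in the lower. Because the genes were picked from this comparison, nothing is read from that contrast. The median difference of the 7 was 1.26, and 6 of 7 differences were positive, as were 749 of the 1176 overall.

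**Figure D1:**
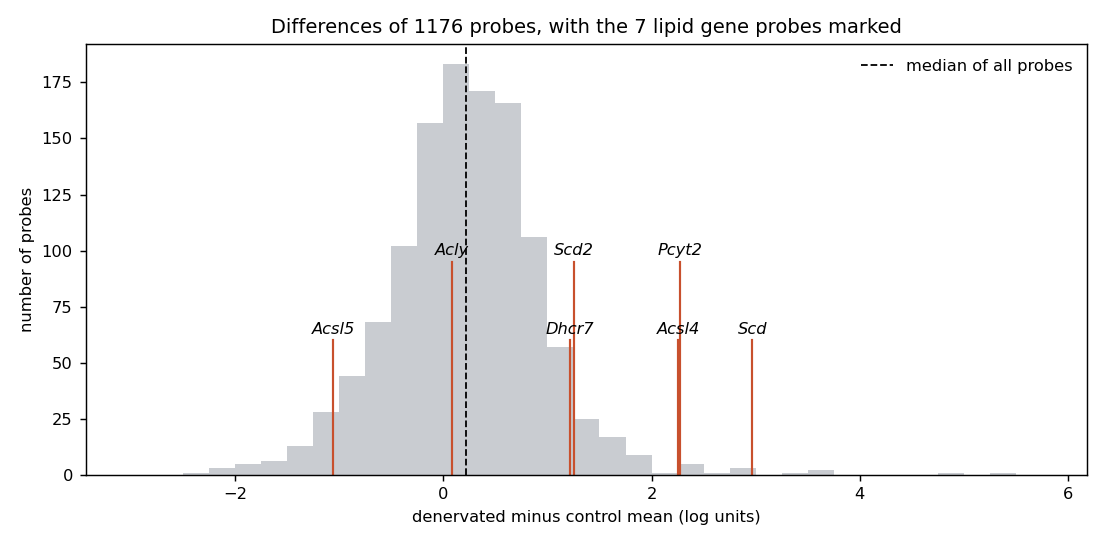
Histogram of the difference between denervated and control means in log units (x axis) over 1176 probes (y axis, number of probes), with the 7 lipid gene probes as labelled lines and the median of all probes dashed. Scd, Pcyt2 and Acsl4 stand above 2, Scd2 and Dhcr7 near 1.2, Acly close to the median and Acsl5 below -1.

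Scd is the desaturase best known from liver and fat, where insulin and dietary carbohydrate raise it. Its control values for rats 1 to 8 were 5.74, 5.66, 6.69, 5.18, 7.92, 5.35, 8.93 and 6.20 log units, and those of rats 1, 2, 3, 4 and 8 were at the floor. Its denervated values were 9.22, 10.10, 7.12, 9.20, 9.81, 10.24, 9.96 and 9.77, none at the floor. Control rat 7 and, less so, control rat 5 were high for their group, and denervated rat 3 was low for its own. Through these arrays the groups overlapped, although 7 of 8 denervated values exceeded the highest control value. The means were 6.46 ± 1.33 and 9.43 ± 1.01 (SD, n = 8 per group), a difference of 2.97 (SE 0.50). The control mean is an upper bound, because 5 of its 8 values are bounds. With all values under the highest array floor of 6.69 raised to it, here called a common floor, the difference was 2.31.

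Scd2, the isoform typical of brain, had the smallest SD of the 7 probes in control muscle. The control values of rats 1 to 8 were 7.40, 7.93, 8.25, 8.52, 8.29, 7.06, 7.49 and 8.41, and the denervated values were 9.10, 8.32, 8.77, 8.77, 9.66, 9.95, 9.34 and 9.51. Only denervated rat 2 lay within the control range, and no value was at the floor. The means were 7.92 ± 0.54 and 9.18 ± 0.54, a difference of 1.26 (SE 0.38). The call over all probes was lost when any of 7 single arrays was left out, those of control rats 1 and 7 and denervated rats 1, 5, 6, 7 and 8, where the difference stood at 1.18, 1.20, 1.27, 1.19, 1.15, 1.23 and 1.21. In the gene table Scd and Scd2 lie on chromosome 1 with 1 gene, Scd4, between them. Probes on such membranes can bind transcripts of close relatives, and how far the Scd and Scd2 probes do so was not tested.

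**Figure D2:**
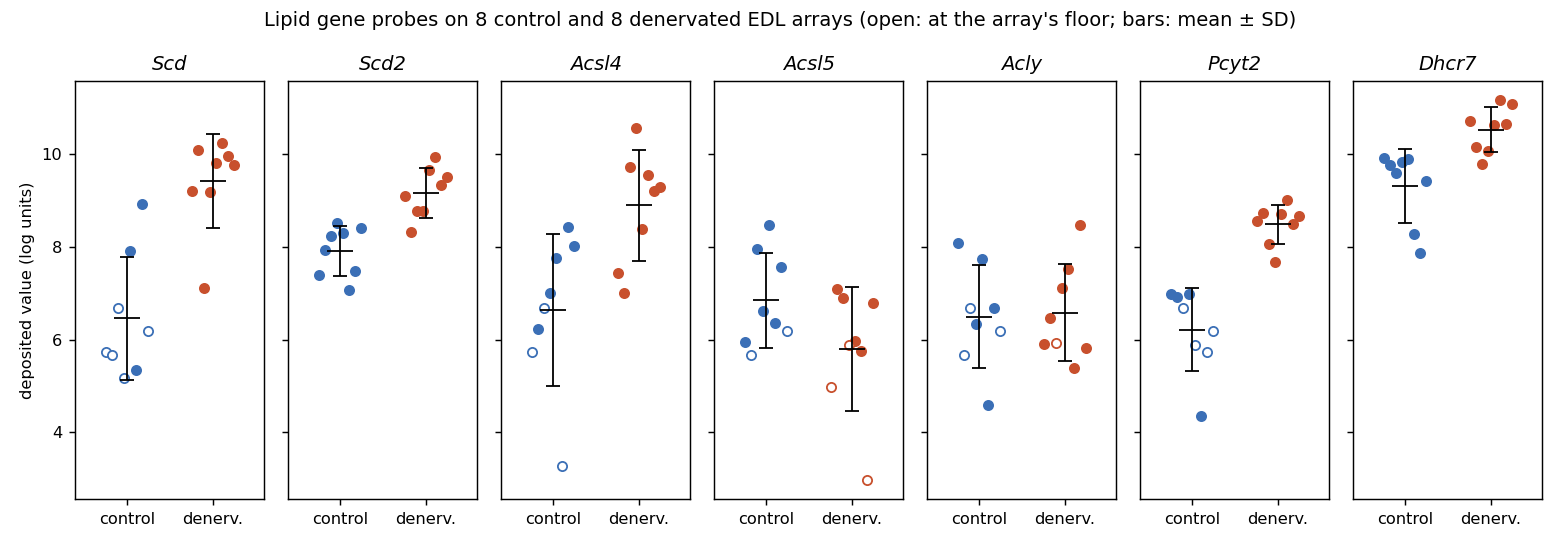
Deposited values in log units (y axis) of the 7 probes on each of 8 control (blue) and 8 denervated (orange) arrays, placed from rat 1 to rat 8 within a group; open circles are values at the floor of their array, and bars give the mean ± SD. The groups are separate for Pcyt2, touch or overlap by a few arrays for Scd, Scd2, Acsl4 and Dhcr7, and overlap throughout for Acsl5 and Acly.

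The mean differences of the acyl-CoA ligases Acsl4 and Acsl5 had opposite signs, and only Acsl4 was called. Acsl4, which prefers arachidonic and other polyunsaturated fatty acids, had control values of 5.74, 6.23, 6.69, 7.0, 7.76, 3.27, 8.42 and 8.02 for rats 1 to 8, with rats 1, 3 and 6 at the floor. Its denervated values were 7.45, 7.01, 9.74, 10.56, 8.39, 9.55, 9.21 and 9.29. Denervated rats 1, 2 and 5 lay within the control range, and the other 5 lay above it. The means were 6.64 ± 1.64 and 8.90 ± 1.20, a difference of 2.26 (SE 0.56). The array of control rat 6 held the lowest value, and without it the difference was 1.78. With the common floor it was 1.66.

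Acsl5 is a ligase of mitochondrial and endoplasmic reticulum membranes, prominent in intestine, liver and brown fat. Its control values for rats 1 to 8 were 5.95, 5.66, 7.96, 6.61, 8.48, 6.37, 7.57 and 6.20, with rats 2 and 8 at the floor, and its denervated values were 4.99, 7.09, 6.89, 5.89, 5.97, 5.76, 2.97 and 6.80, with rats 1, 4 and 7 at the floor. The ranges overlapped over most of their length, and the lowest denervated value, that of rat 7, is the low floor of that array. The means were 6.85 ± 1.02 and 5.79 ± 1.34, a difference of -1.06 (SE 0.61), and the probe was not called. Without denervated rat 7 the difference was -0.65, and with the common floor it was -0.40. Acsl3, the third ligase of the family on the array, stood at 8.74 ± 0.83 in control and 9.28 ± 0.21 in denervated muscle, a difference of 0.54 (SE 0.37, limma adjusted p = 0.443).

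Acly, the ATP citrate lyase that opens fatty acid and sterol synthesis, had nearly equal means in both groups. The control values of rats 1 to 8 were 8.08, 5.66, 6.69, 6.34, 7.74, 4.58, 6.68 and 6.20, with rats 2, 3 and 8 at the floor, and the denervated values were 5.91, 6.47, 5.93, 7.11, 7.53, 5.39, 8.47 and 5.81, with rat 3 at the floor. The groups overlapped almost completely. The means were 6.50 ± 1.11 and 6.58 ± 1.05, a difference of 0.08 (SE 0.58), and the probe was not called. The sign of so small a difference turned with the processing, at -0.13 after centring of each array, 0.28 after quantile normalisation and -0.19 without control rat 6.

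Pcyt2, the enzyme that activates phosphoethanolamine with CTP, was the only member whose groups did not overlap, which held for 1.19% of all probes in the higher direction and for 0.085% in the lower. The control values of rats 1 to 8 were 6.98, 6.92, 6.69, 6.99, 5.88, 4.35, 5.74 and 6.20, with rats 3, 5, 7 and 8 at the floor. The denervated values were 8.56, 8.73, 8.06, 7.68, 8.71, 9.01, 8.5 and 8.67, none at the floor. The lowest denervated value, 7.68, lay above the highest control value, 6.99, and above every control floor, the highest of which was 6.69, so the control bounds do not touch the separation. The means were 6.22 ± 0.90 and 8.49 ± 0.42, a difference of 2.27 (SE 0.49), which was 2.00 without the low array of control rat 6 and 1.70 with the common floor. The groups also stayed apart after quantile normalisation, with a highest control value of 7.34 and a lowest denervated value of 7.88. After each array was centred on its median those values were -1.12 and -0.29. Pcyt1a, which makes the corresponding intermediate for phosphatidylcholine, stood at 9.0 ± 0.82 and 9.54 ± 0.27, a difference of 0.54 (SE 0.36, limma adjusted p = 0.437).

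Dhcr7, the reductase that turns 7-dehydrocholesterol into cholesterol, had control values of 9.91, 9.77, 9.60, 9.83, 9.90, 8.28, 7.86 and 9.42 for rats 1 to 8. Its denervated values were 10.72, 10.16, 9.80, 10.06, 10.63, 11.17, 10.66 and 11.08. Control rats 6 and 7 were low for their group, and only denervated rat 3 lay within the control range. The means were 9.32 ± 0.80 and 10.54 ± 0.49, a difference of 1.22 (SE 0.36). Dhcr7 was not called after centring, where it differed by 1.01 (SE 0.32), nor after quantile normalisation, where it differed by 0.74 (SE 0.30). Its call was also lost without any of the arrays of control rats 7 and 8 and denervated rats 1, 5, 6, 7 and 8, with differences of 1.01, 1.23, 1.19, 1.20, 1.12, 1.20 and 1.14.

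The size of several differences depended on which rats were compared. Scd differed by 3.09 among rats 1 to 4 and by 2.85 among rats 5 to 8, and Acsl4 by 2.27 and 2.24. For Pcyt2 the differences were 1.36 and 3.18 in the same order, for Dhcr7 0.41 and 2.02, and for Scd2 0.71 and 1.80. Acsl5 stood at -0.33 and -1.78, and Acly at -0.34 and 0.50. All probes together had median differences of -0.03 and 0.55, and the low array of control rat 6 belongs to the second set. In that set the Acsl4 control values of rats 5, 7 and 8 were 7.76, 8.42 and 8.02, beside the floor value of 3.27 for rat 6. The denervated values of rats 5 to 8 were 8.39, 9.55, 9.21 and 9.29. The Acsl4 difference of 2.24 thus rests in part on that floor value. For Scd all control values of rats 1 to 4 were at the floor, 5.74, 5.66, 6.69 and 5.18. Its difference of 3.09 thus set denervated values against array floors alone, as did its call in those rats, given below. For Pcyt2 the control values of rats 5, 7 and 8 were at the floor, beside 4.35 on the low array of rat 6. Its difference of 3.18 thus rests in part on floor values too. The split by rat number was taken over from earlier work on these arrays, nothing in the labels calls it a batch, and the difference between the sets was not tested. In rats 1 to 4 alone, 1 of the 7 was called higher, Scd, where 1.53% of all probes were. In rats 5 to 8 alone, 5 of the 7 were called higher, where 11.1% of all probes were.

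**Figure D3:**
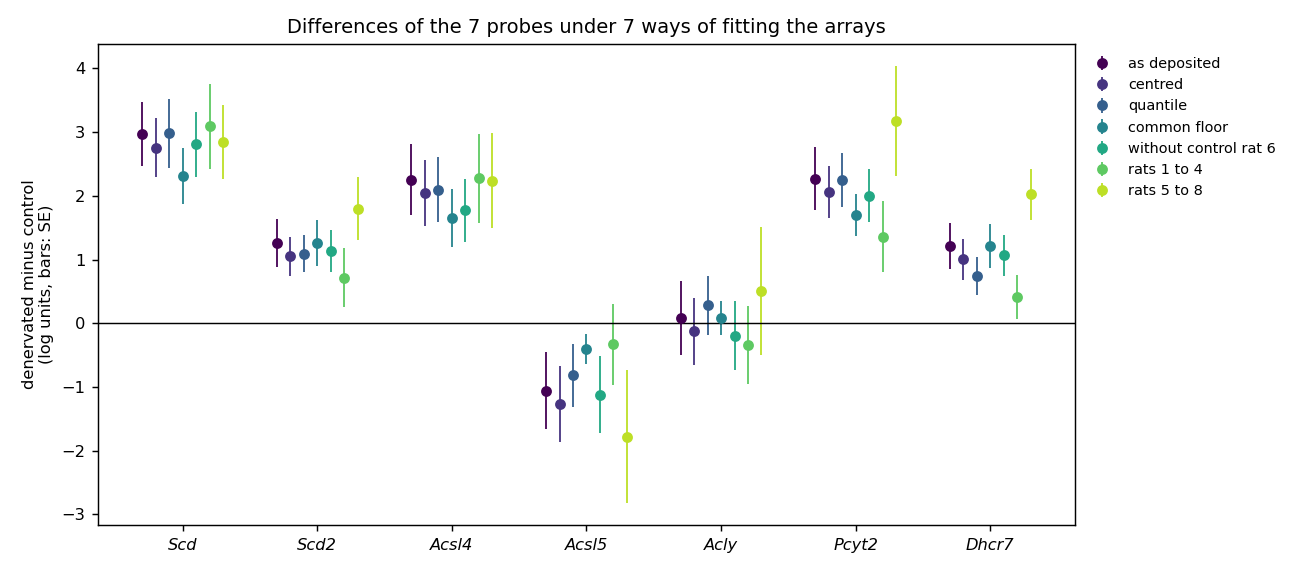
Difference between denervated and control means in log units (y axis, bars SE) for the 7 probes (x axis) with values as deposited, after centring, after quantile normalisation, with a common floor, without control rat 6, and in rats 1 to 4 or rats 5 to 8 alone. Scd and Acsl4 lie close together in both sets of rats, whereas Pcyt2, Dhcr7 and Scd2 lie higher in rats 5 to 8 than in rats 1 to 4. The Acsl4 point of rats 5 to 8 includes control rat 6, whose Acsl4 value was at the floor. The Scd point of rats 1 to 4 rests on control values that were all at the floor. In the Pcyt2 point of rats 5 to 8, only control rat 6 was above its floor.

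Whether the 7 probes varied together from rat to rat is separate from the difference between groups. With each array centred on its median and each group on its mean, Pearson correlations over the 16 arrays ran from -0.46 for Scd with Pcyt2 to 0.62 for Pcyt2 with Dhcr7, with a median of -0.08 over the 21 pairs. For the 2 desaturases r was -0.27 (Spearman's rho = -0.11, permutation p = 0.333 and 0.692, adjusted 0.774 and 0.855). Pcyt2 and Dhcr7 gave r = 0.62 and rho = 0.62 (permutation p = 0.00305 and 0.00520, adjusted over the 21 pairs 0.0640 and 0.109). For Scd with Pcyt2 the sign was not steady, with r = -0.77 over the 8 control arrays, 0.40 over the 8 denervated arrays and -0.04 with centring within rats 1 to 4 and rats 5 to 8. For Pcyt2 and Dhcr7, leaving out the 2 arrays farthest from the median of Pcyt2 lowered r to 0.37, and centring within the sets of rats gave 0.46. Scd2 and Dhcr7 gave r = 0.59 and rho = 0.41 (permutation p = 0.0308 and 0.116, adjusted 0.323 and 0.542), with r = 0.07 without the 2 farthest arrays of Scd2 and 0.63 with centring within the sets. None of the 21 pairs passed after adjustment, and 2 passed at an unadjusted p. A value at the floor is that of its array, and probes at the floor of the same array share it. On control rat 8, for example, Scd, Acsl5, Acly and Pcyt2 all stood at 6.20. This limits these correlations for Scd, Pcyt2, Acsl4 and Acly, mostly in control muscle, and for Acsl5 in both groups. How far the shared values moved r was not tested.

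The probes most like each member on the same centred values, among 1003 or 1004 other probes with a single gene and at most 4 arrays at the floor, were the following, as a description only. Scd was most like Gtf3c1 (r = 0.76), Tfec (0.76) and Gipc1 (0.68). Scd2 was most like Aldh6a1 (r = 0.82), Crisp3 (0.74) and Lypd8l1 (0.73). Acsl4 was most like Ppp1r3b (r = 0.89), Atp7a (0.77) and Colq (0.77). Acsl5 was most like Sult1e1 (r = 0.82), Cyp3a18 (0.73) and Lbr (0.70), and Acly was most like Tgm1 (r = 0.74), Csn1s1 (0.66) and Andpro (0.63). Pcyt2 was most like Tnp2 (r = 0.83), the pyruvate kinase Pkm (0.82) and Pam (0.81). Dhcr7 was most like Dynlrb1 (r = 0.84), Ddx39b (0.81) and the hypoxia factor Hif1a (0.78). No other member and no gene of the pathway lists appeared among these 21. For some this was fixed in advance, since Scd, Acsl5, Soat1, St3gal5, B4galnt1 and Dgkg were at the floor on more than 4 arrays.

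Around the members, 31 further genes of lipid metabolism were measured, of 206 listed from textbook knowledge. None passed in limma in either direction. At an unadjusted p 4 passed, 1 higher and 3 lower, and an exact permutation test of each probe called 1. The 3 lower ones, Soat1, Dgkb and St8sia1, shrank with the common floor, to -0.18, -0.78 and -0.80. The higher one, Thrsp, stood at 1.04 with it. Differences of the 31 genes as deposited ran from -1.48 to 1.04 with a median of -0.05. Of the 31, 15 were positive, beside a median of 0.22 over all probes. The list of fatty acid synthesis, elongation and desaturation had no measured member besides Scd, Scd2 and Acly.

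In cholesterol and isoprenoid synthesis, to which Dhcr7 belongs, none of 7 genes passed and 1 did at an unadjusted p. Soat1, which esterifies cholesterol for storage, differed by -1.41 (adjusted p = 0.251) but lay at the floor for 7 rats of each group. Idi1, the isomerase that makes the isoprenoid building block, differed by 0.57 (adjusted p = 0.504) and the sterol enzyme Hsd17b7 by 0.51 (adjusted p = 0.572). Fdps, Mvk, Lss and Mvd lay between -0.39 and 0.31. The list median was -0.26.

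In phospholipid and glycerolipid synthesis, the pathway of Pcyt2, none of 8 genes passed and 1 did at an unadjusted p. The diacylglycerol kinase Dgkb differed by -1.48 (adjusted p = 0.153), Cds1, which makes CDP-diacylglycerol, by -1.17 (adjusted p = 0.334), and Pcyt1a by 0.54. Pemt, which methylates phosphatidylethanolamine, differed by 0.05 (SE 0.42). The list median was -0.15.

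Of 3 genes of fatty acid uptake, activation and binding, none passed, with the thioesterase Acot1 at 0.19 (adjusted p = 0.841) and the bile acid binding protein Fabp6 at -0.24 (adjusted p = 0.882) beside Acsl3. None of 4 sphingolipid and ganglioside genes passed, and all 4 differences were negative, with the sialyltransferases St8sia1 at -1.25 (adjusted p = 0.241) and St3gal5 at -0.65 (adjusted p = 0.633), and B4galnt1 at -0.41 (adjusted p = 0.833). St3gal5 lay at the floor for 5 control and 4 denervated rats and B4galnt1 for 5 and 3, and the denervated floors reached lower than those of control arrays. The single measured genes of the lipoprotein and eicosanoid lists were Apob at 0.73 (adjusted p = 0.477) and the secreted phospholipase Pla2g2a at 0.68 (adjusted p = 0.280).

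Among 7 transcriptional regulators of lipid genes none passed. Thrsp, a thyroid hormone responsive protein of lipogenic tissues, came nearest, at 8.34 ± 0.88 in control and 9.38 ± 0.30 in denervated muscle, a difference of 1.04 (SE 0.38, adjusted p = 0.0942). It passed by exact permutation (adjusted p = 0.0410) and in limma with the 2 sets of rats as a block (adjusted p = 0.0408), but not after centring or quantile normalisation (adjusted p = 0.133 and 0.142). Cebpd differed by -1.22 (adjusted p = 0.315) and the thyroid hormone receptor Thra by 0.65 (adjusted p = 0.410). The liver X receptors Nr1h2 and Nr1h3 stood at 0.53 and 0.31, Usf1 at 0.31, and Nfya, a subunit of the CCAAT-binding factor, at -0.62 (adjusted p = 0.555).

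**Figure D4:**
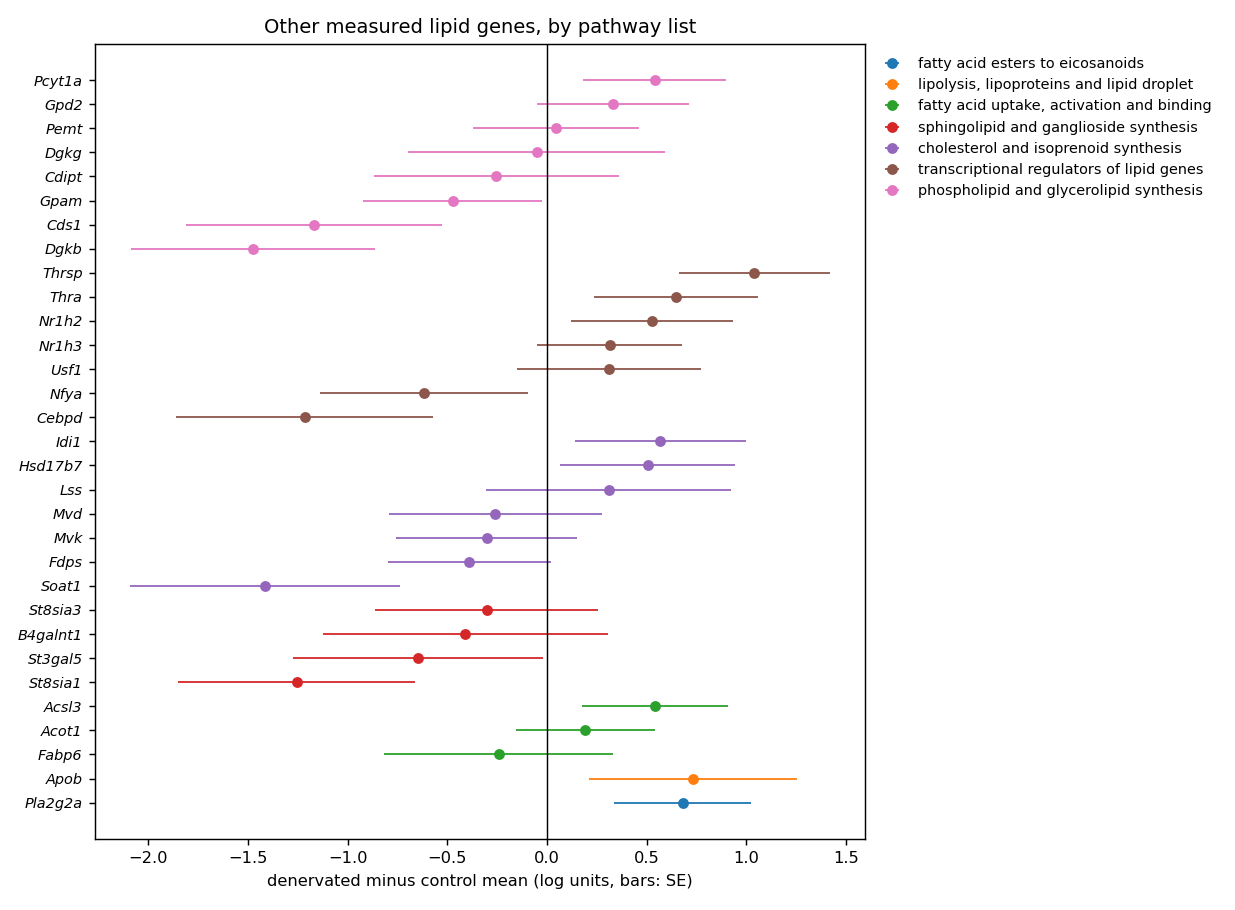
Difference between denervated and control means in log units (x axis, bars SE) for the other 31 measured lipid genes, coloured by pathway list. The differences run from -1.48 for Dgkb to 1.04 for Thrsp, and none passed over all probes.

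In whole muscle, fewer cells of a type and less RNA per cell cannot be told apart. None of the 15 listed adipocyte markers was measured, so the share of fat cells in these muscles could not be followed. Of 3 measured fibroblast and matrix markers, S100a4, Bgn and Dcn, all 3 rose, with a mean level of 7.49 to 10.24 on control arrays and 11.0 to 12.10 on denervated arrays. Dcn did not pass after centring (limma adjusted p = 0.0782), after quantile normalisation (0.180) or without control rat 6 (0.0563). The 6 measured Schwann cell markers were Prx, Cnp, Egr2, S100b, L1cam and Gfap. None of them passed in limma (0 at an unadjusted p, mean level 4.90 to 7.67 and 6.50 to 7.54), and Gfap lay at the floor for 7 control and 5 denervated rats. Of 3 macrophage and leukocyte markers none passed (3 at an unadjusted p, mean level 7.23 to 8.97 and 7.28 to 8.69), and their differences were not all of one sign. In limma the leukocyte antigen Cd48 stood at 1.24 (adjusted p = 0.0688). The complement subunit C1qb stood at 0.95 (adjusted p = 0.138). The chemokine Cxcl1 stood at -1.92 (adjusted p = 0.0550) and lay at the floor for 4 control and 7 denervated rats. Of 5 skeletal muscle fibre markers 1 fell, the myosin light chain kinase Mylk2, with a mean level of 8.82 to 11.95 on control and 9.51 to 10.71 on denervated arrays. After quantile normalisation Pgam2 (-0.93, limma adjusted p = 0.0172) and Cacna1s (-0.79, limma adjusted p = 0.00230) were lower too. After centring these 2 did not pass (limma adjusted p = 0.969 and 0.754). The part of these cell types in the values of the 7 lipid genes was not tested.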

How the data were processed

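Per the labels, cDNA was labelled and hybridised on Clontech rat Atlas membranes, which were read by phosphorimager with Array Vision software; a linear regression served for normalisation. The values deposited by the authors are a score on a log scale, as the values show; its base and any background correction are not stated there. Of 1185 probes, 9 reference genes on another scale were left out. A filter (value above 0 on at least 8 arrays) removed 0 of the remaining 1176. The platform table gave 1 gene for 1106 probes, several for 2 and none for 68; 1099 gene IDs were found in RefSeq (GRCr8), which updated their symbols. For genes with several probes the brightest over all arrays was used.

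The groups were set against each other over all 16 arrays without further scaling, using lmFit and eBayes (trend, two-sided) of limma 3.58.1 under R 4.3.3. Benjamini-Hochberg adjusted p-values under 0.05 over 1176 probes counted as calls, and SEs are the fit's moderated ones. Permutations within groups (100000) tested correlations. Procedures were tested on simulated data. Alternatives were centring, quantile normalisation, reference probes, a common floor, floor filters, blocks, array weights, exact permutation and leaving out each array. Named genes were the members, up to 3 genes with the lowest adjusted p of each pathway list, and the 3 probes most like each member; further genes were named after their values were seen. The members and lists were chosen with earlier results of these data known. The number of arrays limits the precision. Figures used matplotlib 3.10.9.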

Additional observations from a re-analysis of the deposited data

Results flagged for a closer look

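Of 50 sets of 8 values examined (2 groups for each of 24 named genes and for the array means), 6 held an array far from the other 7, where chance gives about 1 in 20. The mean over probes of control rat 6 was 6.63, with the next at 8.19. The same array was lowest for Pcyt2 in control muscle, at 4.35 with the next at 5.74, for Thra, at 5.69 with the next at 8.58, and for Pla2g2a, at 7.94 with the next at 9.01. Denervated rat 3 was lowest for Scd, at 7.12 with the next at 9.20, and for Pla2g2a, at 8.97 with the next at 9.87. Without control rat 6 the Pcyt2 difference was 2.00, and without denervated rat 3 the Scd difference was 3.30.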

How the results depend on the processing

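The count of called probes, 74 as deposited, was 113 with the replicate block (rat number), 131 with the sets of rats (1 to 4, 5 to 8) as a block, 30 in rats 1 to 4 alone and 139 in rats 5 to 8 alone. It was 43 to 98 without single arrays, namely 49, 45 and 48 without control rats 5, 7 and 8, and 43 and 46 without denervated rats 1 and 6. The split of 64 higher and 10 lower became 35 and 15 after centring and 35 and 27 after quantile normalisation. In rats 1 to 4 and rats 5 to 8 alone, Scd2 differed by 0.71 and 1.80, Pcyt2 by 1.36 and 3.18 and Dhcr7 by 0.41 and 2.02. The count of other lipid genes called, 0 as deposited, was 1 with that block (Thrsp), 1 with array weights (Dgkb) and 1 by exact permutation (Thrsp). The causes were not tested. The differences of Scd, Acsl4, Acsl5 and Acly moved by less than each probe's own spread between arrays in all 27 alternatives. That spread, the pooled SD, was 1.18, 1.44, 1.19 and 1.08 for these, against 0.54 for Scd2, 0.71 for Pcyt2 and 0.66 for Dhcr7. The limit was therefore wider for the noisier probes, and Acsl5, for example, ran from -1.78 to -0.33. Deviations of same-numbered rats correlated by 0.06 to 0.19, over 0.1 in 7 of 8 pairs. Of 8 control arrays, 2 correlated best with the denervated array of their own number. Each correlated best with a denervated array of its own set, rats 1 to 4 or rats 5 to 8. These values do not settle whether equal numbers mark the same rat, and the numbers were not taken as pairs. The replicate block changed no call of a member. Values at the floor, 17 of 56 in control muscle, limit what can be said of control levels.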
